A study of Homo sapiens with 12 samples.

Results

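The genes described here are the 44 proteasome subunit genes among 19974 human protein-coding genes on chromosomes 1 to 22 and X. They are the RefSeq genes on hg38 whose symbol is PSMA, PSMB, PSMC, PSMD, PSME or PSMF followed only by digits. The proteasome is the barrel-shaped protease that degrades ubiquitin-tagged proteins. Its 20S core is built from alpha rings, which gate the entry, and beta rings, which hold the proteolytic sites, and the 19S cap recognises, unfolds and admits substrates. Plasma cells and myeloma cells secrete large amounts of immunoglobulin and depend on proteasome activity, and proteasome inhibitors are used to treat myeloma.

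H3K27ac, an acetylated form of histone H3 found at active promoters and enhancers, was mapped by CUT&RUN, in which a tethered nuclease releases antibody-bound chromatin, in the myeloma cell line RPMI 8226. The 4 groups of 3 libraries were CEBPB knockout cells with dexamethasone (KO-Dex), CEBPB knockout cells with DMSO (KO-DMSO), scramble control cells with dexamethasone (SCR-Dex) and scramble control cells with DMSO (SCR-DMSO). CEBPB encodes the transcription factor C/EBPβ, and dexamethasone, a synthetic glucocorticoid, was given at 10 µM for 2 h. Its title names the effect of C/EBPβ loss on enhancer responses to the drug as the question. The labels do not say whether the knockout cells were 1 clone or a pool, nor whether each library had its own culture. The p-values below therefore reflect variation among libraries, which may be technical.

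Each library is a list of 41164 to 56421 peaks covering 48.0 to 66.4 Mb, and without counts in the lists the read depth is not known. The measure used throughout is covered length, the number of bases lying in peaks within 5 kb of either end of a gene. Plasma cell markers were covered in all 12 libraries for 7 of 8 genes, with summed lengths of 30.1 to 32.4 kb in KO-Dex, 27.9 to 31.0 kb in KO-DMSO, 26.6 to 28 kb in SCR-Dex and 25.8 to 28.3 kb in SCR-DMSO. Of 4 mature B cell markers, PAX5 and MS4A1 were at 0 in every library, and none was covered in all 12. Markers of other lineages were also covered in all 12: 3 of 4 epithelial (EPCAM, KRT8 and KRT18), 2 of 4 myeloid (CSF1R and SPI1) and 1 of 4 T cell (CD8A). Coverage of such lists by itself therefore does not separate plasma cells from other cell types. Coverage at CEBPB averaged 3164 ± 170 bp in KO-Dex, 3333 ± 96 bp in KO-DMSO, 3179 ± 51.3 bp in SCR-Dex and 3178 ± 71.5 bp in SCR-DMSO (SD, n = 3 each), so the mark at the gene does not check the knockout. ZBTB16, a glucocorticoid-induced gene, averaged 0 bp in both knockout groups, 3075 ± 670 bp in SCR-Dex and 112 ± 195 bp in SCR-DMSO. FKBP5, another glucocorticoid target, averaged 2663 ± 19.5 bp in KO-Dex, 1909 ± 292 bp in KO-DMSO, 3314 ± 49.1 bp in SCR-Dex and 2510 ± 459 bp in SCR-DMSO. TSC22D3, also a glucocorticoid target, averaged 3323 ± 379 bp in KO-Dex, 3188 ± 602 bp in KO-DMSO, 4435 ± 177 bp in SCR-Dex and 3710 ± 669 bp in SCR-DMSO.

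Proteasome subunit genes carried H3K27ac within 5 kb of their ends in RPMI 8226 cells almost without exception. Of the 44 genes, 41 (93.2%) had covered bases in all 12 libraries, against 12338 of the 19974 protein-coding genes (61.8%). By this measure PSMA6, PSMB11 and PSMF1 were the exceptions, and no member was uncovered in every library. Annotated starts, described below, gave another picture. The PSMA6 start and the inner PSMF1 start lay inside a peak in all 12 libraries, and the PSMA8 and PSMB11 starts in none. In single libraries 41 to 43 members were covered, with a summed length of 75.8 to 89.7 kb. The median covered length of the 41 genes was 1769 bp, against 1810 bp for all genes covered in every library, whose 10th and 90th percentiles were 977 and 3644 bp. The highest fold enrichment at a member, a value the authors' peak caller gave each peak over its background, had a median of 5.53 over the 41 genes, against 5.08 over all genes covered in every library. Within its own library's list, the strongest peak of a member had a median percentile of 86.6, against 81.2 for all genes covered in every library. Windows of neighbouring genes overlapped, and 39 of the 44 members shared part of their window with at least 1 other protein-coding gene.

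**Figure D1:**
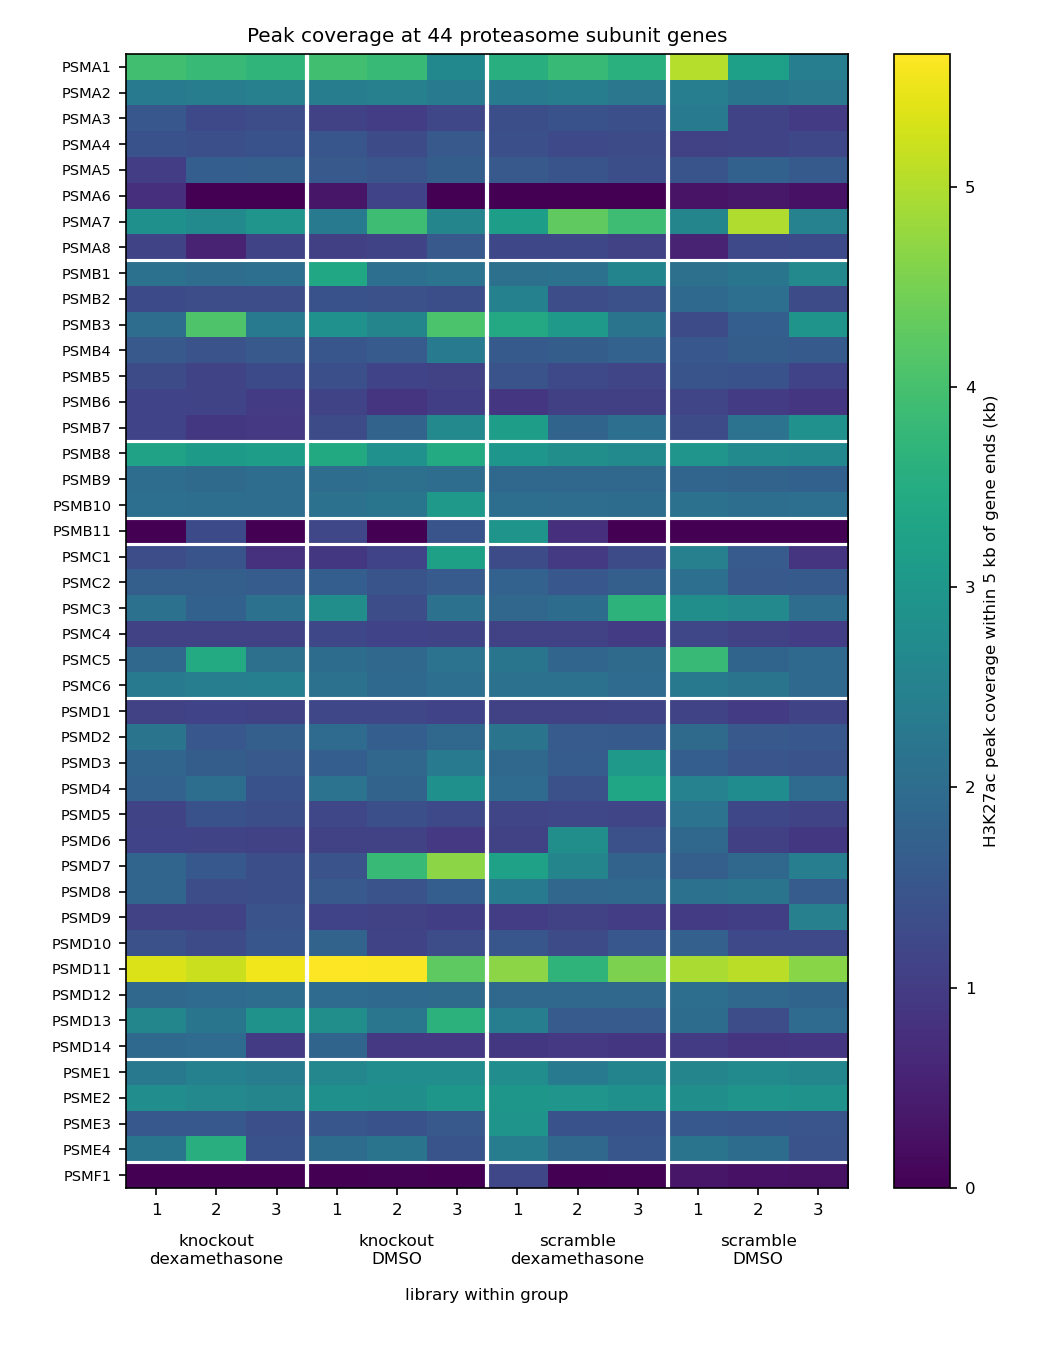
Covered length in kb within 5 kb of the ends of each of the 44 proteasome subunit genes (down the page, grouped by role from alpha ring to inhibitor) in each of the 12 libraries (across, 3 per group). PSMD11 is bright in every library, while PSMA6, PSMB11 and PSMF1 are dark in most.

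Annotated transcription starts were given for 39 members by the RefSeq promoter table; PSMA7, PSMB1, PSMB6, PSMB7 and PSMD4 had no entry. Of starts of the same gene within 1 kb of each other only the outermost was kept here, which left 41 start positions, and 37 of them lay inside a peak in all 12 libraries. Each of those 37 belonged to a different gene. The peak at such a start had a median width of 1361 bp, from 522 bp at PSMC2 to 2661 bp at PSMA6. Coverage within 2 kb was longer downstream than upstream at 28 of the 41 start positions, with medians of 746 bp downstream and 502 bp upstream. These figures include starts outside any peak, among them PSMA8 and the outer PSMF1 start with 0 bp on both sides. They also include the second PSMD2 start, whose 1371 bp upstream came from the peak at the first PSMD2 start. Upstream coverage averaged 1225 bp at PSMA2, 1206 bp at PSMB9 and 1217 bp at PSME2, whose starts face a divergent start of another gene within 1 kb (MRPL32, TAP1 and RNF31). In all, 9 start positions had such a divergent partner. Upstream coverage at the others averaged 995 bp at PSMD13, 773 bp at PSMD10, 680 bp at PSMC4, 462 bp at PSMD9, 425 bp at PSME4 and 266 bp at the inner PSMF1 start. PSMB3, which has none, had 1494 ± 580 bp upstream (SD over 12 libraries), and its peak reached further out in some libraries than in others.

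**Figure D2:**
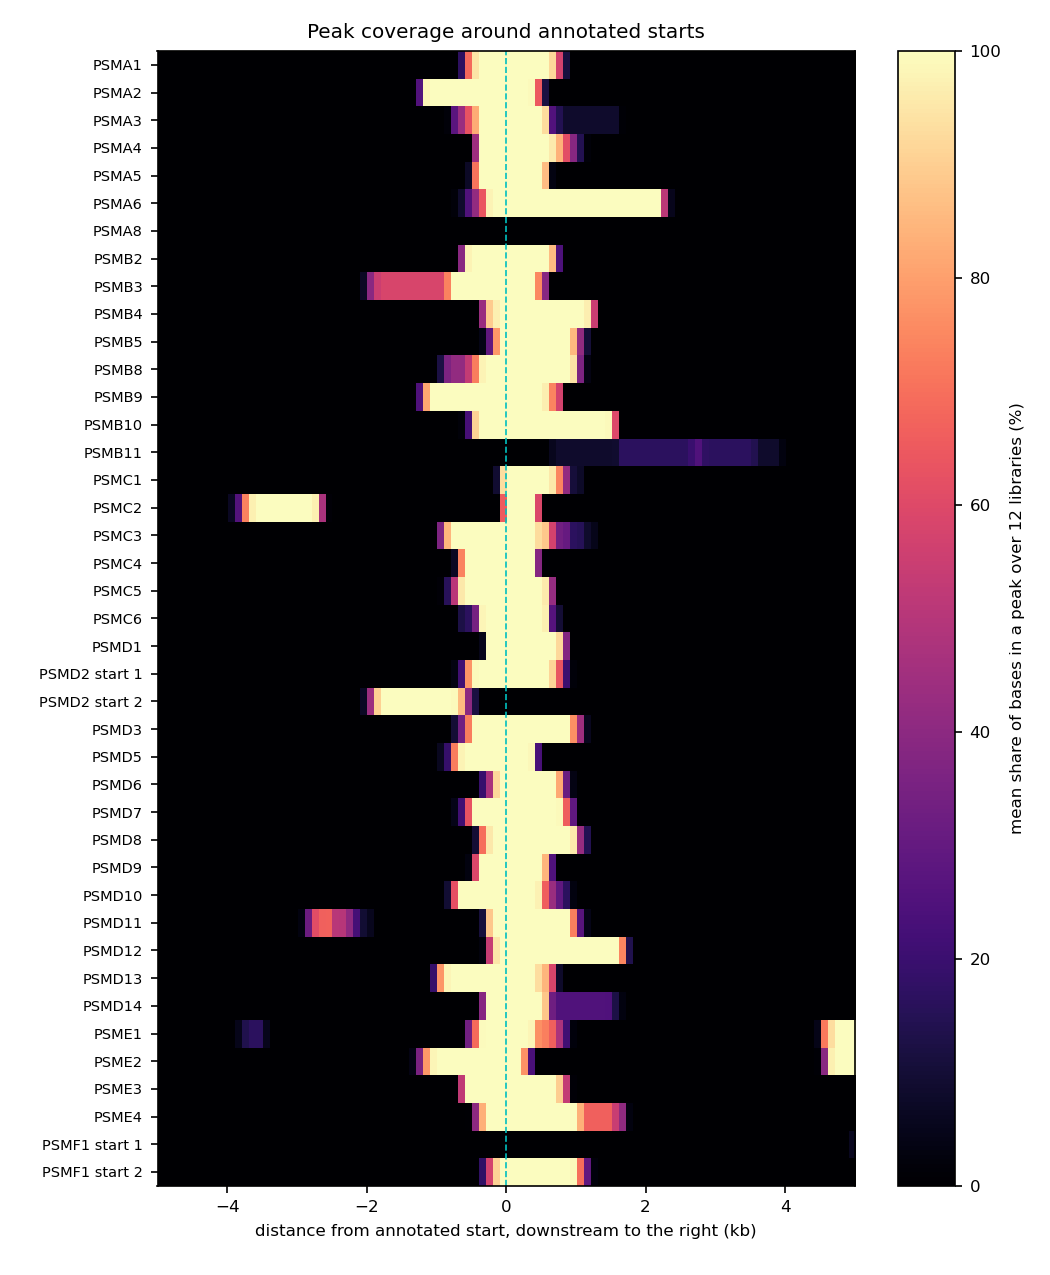
Share of bases lying in a peak, averaged over the 12 libraries, in 100 bp steps from 5 kb upstream to 5 kb downstream of each annotated start (dashed line). Most genes show 1 block at the start, PSMA8 and the first PSMF1 start show none, and PSMA2, PSMB9 and PSME2 extend further upstream than most, as PSMB3 does in part of the libraries.

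Narrower start peaks tended to have the higher fold enrichment, but both values describe the same called peak and are not independent. Within PSMD14, the narrowest start peak had 9.42-fold over 880 bp (SCR-DMSO replicate 2) and the widest 6.19-fold over 1972 bp (KO-Dex replicate 2). Across the 37 starts, the median fold enrichment and the median width of the start peak had a Spearman correlation of −0.73 and a Pearson correlation of −0.64, given as a description over genes that share the same 12 libraries. PSMD14, the deubiquitinase of the cap, had the highest median at 8.08-fold over a median width of 939.5 bp. PSMD1, the large scaffold of the cap, had 7.89-fold over 1134 bp. PSMB10, an interferon-inducible catalytic subunit, had the lowest at 3.69-fold over 2059 bp. PSMC2, an ATPase, did not follow the pattern, with the narrowest peak at 522 bp and a median of 4.64-fold.

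**Figure D3:**
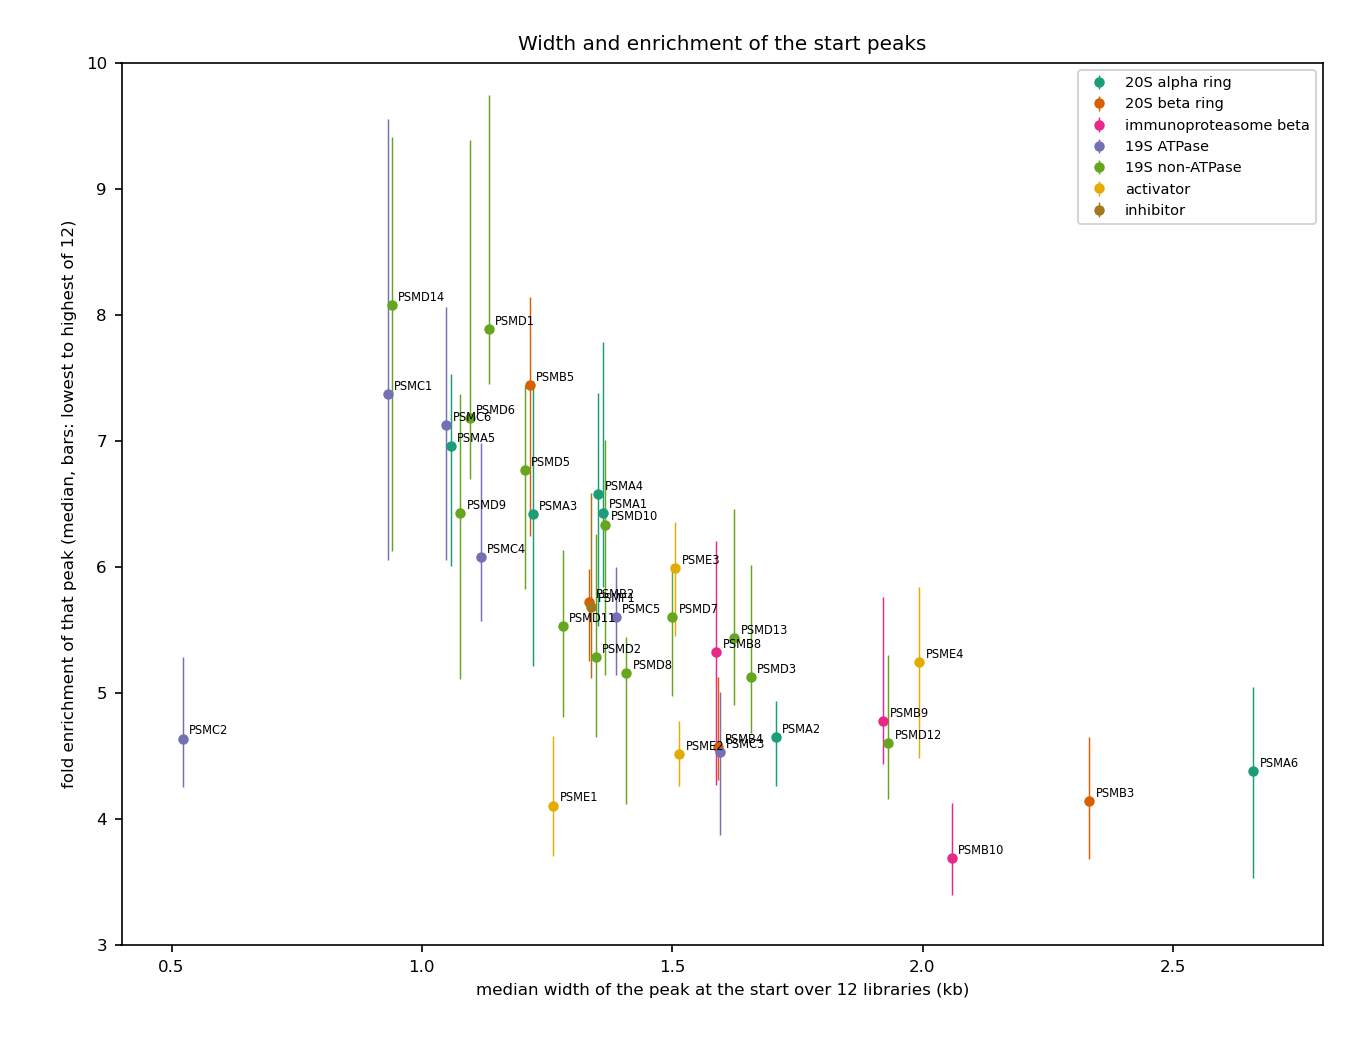
Median fold enrichment of the peak at the annotated start (vertical axis, bars from the lowest to the highest of 12 libraries) against the median width of that peak in kb (horizontal axis) for 37 genes, coloured by role. PSMD14 and PSMD1 are at the upper left and PSMA6, PSMB3 and PSMB10 at the lower right.

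Libraries varied much less at starts than over the wider windows. The coefficient of variation over the 12 libraries had a median of 6.90% for covered length within 2 kb of the starts of the 37 genes, against 18.5% for covered length at the ends of the same genes. At starts it was lowest for PSMB10 (2.76%) and PSMD12 (3.12%), and highest for PSMD14 (37.9%). Coverage near a member's own start made up a median of 77.6% of its coverage at the gene ends over 39 members, and at least 50% for 31 of them.

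The alpha ring genes PSMA1 to PSMA7 encode the outer rings of the core, and PSMA8 encodes a testis paralog of PSMA7. Of these 8 genes, 7 were covered at their ends in all 12 libraries. PSMA1 ends were covered over 3958, 3827 and 3710 bp in KO-Dex, 3958, 3830 and 2644 bp in KO-DMSO, 3569, 3847 and 3584 bp in SCR-Dex and 5027, 3198 and 2414 bp in SCR-DMSO. These were the second longest of the family, with overlapping groups, but none of that length lay within 2 kb of the annotated start of PSMA1. That start is 123276 bp inside the annotated span of chr11:14504876-14643662, whose ends lie beside COPB1 and PDE3B, and it was itself inside a peak in 12 of 12 libraries. Coverage within 2 kb of it ranged from 1136 to 1456 bp.

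PSMA6 showed the reverse. Its ends were covered over 753, 0 and 0 bp in KO-Dex, 336, 1132 and 0 bp in KO-DMSO, 0, 0 and 0 bp in SCR-Dex and 306, 365 and 287 bp in SCR-DMSO. In 6 libraries there was none, and both genotypes had libraries with and without coverage. The annotated start of PSMA6 lies 13759 bp inside the gene span, was inside a peak in all 12 libraries, and had 2337 to 2785 bp covered within 2 kb. It was the widest start peak of the family. Over the whole span with 5 kb either side, PSMA6 had 3314 to 5446 bp covered in every library.

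PSMA7 ends were covered over 2852, 2677 and 2957 bp in KO-Dex, 2324, 3904 and 2584 bp in KO-DMSO, 3157, 4288 and 3899 bp in SCR-Dex and 2579, 4979 and 2501 bp in SCR-DMSO. The groups overlapped, except that the 3 KO-Dex values lay below the 3 SCR-Dex values. PSMA8 ends were covered over 1159, 566 and 1156 bp in KO-Dex, 1066, 1154 and 1589 bp in KO-DMSO, 1221, 1231 and 1125 bp in SCR-Dex and 560, 1260 and 1269 bp in SCR-DMSO. The groups overlapped throughout, and this coverage came from a peak whose edges lay 56076 to 57871 bp downstream of the start, near the far end of the gene. Within 2 kb of the PSMA8 start itself no base was covered in any library, and of 4 germline markers DDX4 and TEX101 were at 0 in all 12 while SYCP3 was covered in all 12 and DAZL in some.

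PSMA4 ends were covered over 1418, 1388 and 1424 bp in KO-Dex, 1525, 1316 and 1575 bp in KO-DMSO, 1390, 1253 and 1317 bp in SCR-Dex and 1100, 1161 and 1224 bp in SCR-DMSO. All of this length lay at the start. The 3 KO-DMSO values and the 3 SCR-Dex values each lay above the 3 SCR-DMSO values. The other alpha ring genes, PSMA2, PSMA3 and PSMA5, ranged over 2203 to 2476 bp, 1011 to 2362 bp and 1021 to 1755 bp.

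The constitutive beta ring genes PSMB1 to PSMB7 were all covered in all 12 libraries. PSMB5 encodes the chymotrypsin-like subunit that bortezomib binds. Its ends were covered over 1285, 1168 and 1273 bp in KO-Dex, 1388, 1149 and 1119 bp in KO-DMSO, 1444, 1254 and 1178 bp in SCR-Dex and 1467, 1437 and 1149 bp in SCR-DMSO. Groups overlapped, and the median fold enrichment of 7.45 was the third highest among the 37 start peaks. PSMB6, the caspase-like subunit, had 1146, 1166 and 1017 bp in KO-Dex, 1170, 856 and 1059 bp in KO-DMSO, 887, 1076 and 1063 bp in SCR-Dex and 1191, 1009 and 886 bp in SCR-DMSO, among the shortest in the family and with overlapping groups.

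PSMB7, the trypsin-like subunit, varied more over libraries than the other constitutive beta ring genes, with a coefficient of variation of 41.1%. Its ends were covered over 1129, 924 and 942 bp in KO-Dex, 1308, 1811 and 2660 bp in KO-DMSO, 3161, 1820 and 2079 bp in SCR-Dex and 1303, 2165 and 2856 bp in SCR-DMSO. All 3 KO-Dex values lay below every value of the other groups. A peak across the higher-coordinate end of its span, 61036 to 62409 bp from the lower end, was present in all 12 libraries. Peaks of lower enrichment within a few kb of the lower end were listed in some libraries only, and in none of KO-Dex. PSMB1, PSMB2, PSMB3 and PSMB4 ranged over 2015 to 3395 bp, 1275 to 2492 bp, 1298 to 4101 bp and 1453 to 2321 bp.

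PSMB8, PSMB9 and PSMB10 encode the catalytic subunits that interferon-γ induces, which replace PSMB5, PSMB6 and PSMB7 in the immunoproteasome. All 3 were covered in every library. PSMB8 and PSMB9 lie side by side on chromosome 6 at chr6:32840717-32844679 and chr6:32854192-32859851, with the peptide transporter gene TAP1 between them. PSMB8 ends were covered over 3260, 3083 and 3145 bp in KO-Dex, 3439, 2863 and 3461 bp in KO-DMSO, 2968, 2795 and 2705 bp in SCR-Dex and 2954, 2698 and 2642 bp in SCR-DMSO. The KO-Dex values all lay above the SCR-Dex values, while KO-DMSO and SCR-DMSO overlapped. Part of that length is a separate peak at the start of TAP2, 5533 to 7040 bp downstream of the PSMB8 start.

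PSMB9 ends were covered over 2026, 1956 and 2030 bp in KO-Dex, 2023, 2086 and 2030 bp in KO-DMSO, 1887, 1885 and 1881 bp in SCR-Dex and 1844, 1812 and 1755 bp in SCR-DMSO. Before normalization, all 6 knockout libraries, at 1956 to 2086 bp, lay above all 6 scramble libraries, at 1755 to 1887 bp. The whole length is the 1 peak that PSMB9 shares with the divergent start of TAP1. PSMB10 ends were covered over 2078, 2053 and 2022 bp in KO-Dex, 2123, 2202 and 3048 bp in KO-DMSO, 2051, 2022 and 2001 bp in SCR-Dex and 2144, 2050 and 2065 bp in SCR-DMSO, with overlapping genotypes and 1 high library.

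RefSeq promoter windows of GRCh38.p14 run from 250 bases before to 50 bases after a start, and those of the interferon-inducible subunits are shown because 2 of the 3 genes, PSMB8 and PSMB10, hold a match to GAAANNGAA, a motif that interferon-regulated factors bind, and PSMB9 holds none. Capitals mark GAAANNGAA on either strand for PSMB8 (inner start, chr6:32843998-32844297, minus strand) and PSMB10 (chr16:67936801-67937100, minus strand). For PSMB9 (chr6:32853942-32854241, plus strand) they mark TGACNNNGC on either strand, the core of the antioxidant response element. The outer PSMB8 start (chr6:32844630-32844929, minus strand) held none of the motifs searched and has no capitals. Both PSMB8 starts lay inside the start peak described below in all 12 libraries.
PSMB8 inner start: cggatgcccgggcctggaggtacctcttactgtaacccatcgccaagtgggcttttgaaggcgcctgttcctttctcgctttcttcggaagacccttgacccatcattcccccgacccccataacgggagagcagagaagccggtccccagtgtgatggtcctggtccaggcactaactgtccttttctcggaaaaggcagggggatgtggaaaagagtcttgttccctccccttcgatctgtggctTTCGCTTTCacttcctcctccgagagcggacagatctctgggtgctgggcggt
PSMB8 outer start: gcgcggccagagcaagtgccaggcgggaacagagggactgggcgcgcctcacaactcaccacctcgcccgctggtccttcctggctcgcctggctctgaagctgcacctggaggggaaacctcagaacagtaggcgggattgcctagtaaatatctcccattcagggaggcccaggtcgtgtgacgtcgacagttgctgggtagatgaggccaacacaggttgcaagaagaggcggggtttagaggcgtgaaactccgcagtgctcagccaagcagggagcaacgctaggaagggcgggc
PSMB9: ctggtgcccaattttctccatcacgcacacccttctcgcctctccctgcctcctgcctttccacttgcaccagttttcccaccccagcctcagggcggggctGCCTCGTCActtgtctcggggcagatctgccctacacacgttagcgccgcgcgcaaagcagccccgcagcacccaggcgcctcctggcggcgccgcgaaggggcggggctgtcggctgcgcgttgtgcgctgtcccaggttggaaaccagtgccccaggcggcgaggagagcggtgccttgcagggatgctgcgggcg
PSMB10: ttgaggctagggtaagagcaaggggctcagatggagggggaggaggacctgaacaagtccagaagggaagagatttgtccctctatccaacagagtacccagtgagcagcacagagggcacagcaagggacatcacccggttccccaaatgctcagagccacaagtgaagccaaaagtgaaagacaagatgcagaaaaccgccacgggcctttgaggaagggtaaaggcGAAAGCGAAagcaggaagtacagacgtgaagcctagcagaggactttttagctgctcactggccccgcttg

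PSMB11 encodes the thymoproteasome subunit, made in cortical thymic epithelium. Its ends were covered over 0, 1272 and 0 bp in KO-Dex, 1211, 0 and 1461 bp in KO-DMSO, 2936, 766 and 0 bp in SCR-Dex and 0, 0 and 0 bp in SCR-DMSO. Coverage appeared in 5 of the 12 libraries, in 3 of 4 groups, and its fold enrichment there was low, from 2.55 to 3.17. The annotated start lay inside a peak in none. PSMB11 shares part of its window with PSMB5. Of 3 thymic cortical epithelium markers, PSMB11 among them, PRSS16 was covered in all 12 libraries and FOXN1 in some.

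The ATPase ring genes PSMC1 to PSMC6 encode the motor at the base of the cap. All 6 were covered in every library, with median lengths from 1118 bp at PSMC4 to 2138 bp at PSMC6. PSMC6 ends were covered over 2321, 2411 and 2433 bp in KO-Dex, 2110, 1930 and 2064 bp in KO-DMSO, 2134, 2142 and 1985 bp in SCR-Dex and 2297, 2175 and 1932 bp in SCR-DMSO. The KO-Dex values all lay above the KO-DMSO values. PSMC3 ends were covered over 2139, 1757 and 2107 bp in KO-Dex, 2790, 1345 and 2126 bp in KO-DMSO, 1861, 1995 and 3657 bp in SCR-Dex and 2789, 2664 and 2018 bp in SCR-DMSO, with wide overlap between groups. PSMC1, PSMC2 and PSMC5 ranged over 814 to 3214 bp, 1478 to 2071 bp and 1819 to 3848 bp, and PSMC4 stayed within 996 to 1225 bp.

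The 14 non-ATPase genes of the cap, PSMD1 to PSMD14, include ubiquitin receptors, scaffolds, the deubiquitinase PSMD14 and the assembly chaperones PSMD5, PSMD9 and PSMD10. All 14 were covered in all libraries. PSMD11, a scaffold subunit, had the longest coverage of the family, with 5357, 5216 and 5541 bp in KO-Dex, 5662, 5622 and 4259 bp in KO-DMSO, 4673, 3692 and 4553 bp in SCR-Dex and 4944, 5076 and 4659 bp in SCR-DMSO. KO-Dex lay above SCR-Dex without overlap, but only 22.8 to 34.5% of this length was within 2 kb of the PSMD11 start, and the window overlaps those of CDK5R1 and MYO1D. PSMD14 had the shortest median, with 1929, 1972 and 1005 bp in KO-Dex, 1823, 933 and 945 bp in KO-DMSO, 907, 934 and 900 bp in SCR-Dex and 981, 880 and 886 bp in SCR-DMSO. All of it lay at the start, where 3 knockout libraries reached 1823 to 1972 bp and the other 9 libraries had 880 to 1005 bp.

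PSMD4, a ubiquitin receptor, had 1790, 2053 and 1426 bp in KO-Dex, 2157, 1796 and 2835 bp in KO-DMSO, 1988, 1414 and 3320 bp in SCR-Dex and 2507, 2764 and 1985 bp in SCR-DMSO. Groups overlapped. PSMD9 had 1101, 1103 and 1455 bp in KO-Dex, 1139, 1117 and 1056 bp in KO-DMSO, 1035, 1095 and 1019 bp in SCR-Dex and 1010, 1058 and 2458 bp in SCR-DMSO, where 1 SCR-DMSO library stood far above the rest. PSMD3, a scaffold of the lid, had 1853, 1663 and 1590 bp in KO-Dex, 1695, 1860 and 2355 bp in KO-DMSO, 1908, 1658 and 3045 bp in SCR-Dex and 1688, 1497 and 1441 bp in SCR-DMSO.

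In KO-DMSO all 3 PSMD3 values lay above those in SCR-DMSO. PSMD7, the partner of PSMD14, had 1838, 1561 and 1371 bp in KO-Dex, 1439, 3816 and 4672 bp in KO-DMSO, 3230, 2581 and 1808 bp in SCR-Dex and 1708, 1922 and 2432 bp in SCR-DMSO. The KO-DMSO libraries spread over nearly the whole range. PSMD8, a lid subunit, had 1851, 1335 and 1354 bp in KO-Dex, 1580, 1445 and 1687 bp in KO-DMSO, 2345, 1864 and 1913 bp in SCR-Dex and 2140, 2182 and 1648 bp in SCR-DMSO.

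The PSMD8 values were lower in KO-Dex than in SCR-Dex without overlap, and the DMSO groups overlapped. PSMD13, another lid subunit, had 2604, 2199 and 2889 bp in KO-Dex, 2806, 2214 and 3628 bp in KO-DMSO, 2426, 1618 and 1622 bp in SCR-Dex and 2008, 1336 and 1974 bp in SCR-DMSO. The KO-DMSO values lay above the SCR-DMSO values without overlap. PSMD6 ranged over 921 to 2792 bp, and PSMD1, PSMD2, PSMD5, PSMD10 and PSMD12 stayed between 1014 and 2187 bp.

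The activators PSME1 and PSME2 form the interferon-inducible PA28 cap, PSME3 forms the nuclear PA28γ cap and PSME4 is PA200. All 4 were covered in every library. PSME1 ends were covered over 2282, 2482 and 2387 bp in KO-Dex, 2618, 2773 and 2781 bp in KO-DMSO, 2770, 2314 and 2549 bp in SCR-Dex and 2580, 2702 and 2595 bp in SCR-DMSO. PSME2 ends were covered over 2782, 2669 and 2572 bp in KO-Dex, 2837, 2816 and 2994 bp in KO-DMSO, 2986, 2949 and 2848 bp in SCR-Dex and 2824, 2935 and 2883 bp in SCR-DMSO. The KO-Dex values of PSME2 lay below those in SCR-Dex without overlap, while for PSME1 the genotypes overlapped under both treatments. The genes neighbour each other on chromosome 14 at chr14:24136194-24138962 and chr14:24143365-24146610, so their windows overlap. PSME3 and PSME4 ranged over 1387 to 2932 bp and 1424 to 3582 bp.

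Their promoter windows are shown for the same motif, GAAANNGAA in capitals on either strand, at chr14:24135944-24136243 (plus strand) and chr14:24146561-24146860 (minus strand). Both also hold TGACNNNGC, not capitalised here. The match in PSME2 begins 28 bases before the start and that in PSME1 begins 6 bases after it.
PSME1: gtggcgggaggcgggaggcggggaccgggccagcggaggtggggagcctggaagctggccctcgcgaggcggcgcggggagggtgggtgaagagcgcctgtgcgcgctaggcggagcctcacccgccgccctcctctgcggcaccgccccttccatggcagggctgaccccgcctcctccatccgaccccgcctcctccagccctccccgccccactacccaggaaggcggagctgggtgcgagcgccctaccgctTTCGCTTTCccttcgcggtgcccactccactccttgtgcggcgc
PSME2: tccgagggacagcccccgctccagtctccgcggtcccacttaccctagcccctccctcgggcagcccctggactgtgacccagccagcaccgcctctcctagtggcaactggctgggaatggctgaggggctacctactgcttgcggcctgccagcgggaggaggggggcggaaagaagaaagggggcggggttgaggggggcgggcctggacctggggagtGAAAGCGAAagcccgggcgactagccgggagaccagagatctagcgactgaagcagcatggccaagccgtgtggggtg

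PSMF1 encodes PI31, an inhibitor of the isolated core particle. Its ends were covered over 0, 0 and 0 bp in KO-Dex, 0, 23 and 0 bp in KO-DMSO, 1213, 0 and 28 bp in SCR-Dex and 340, 287 and 247 bp in SCR-DMSO. All 3 KO-DMSO values lay below the 3 SCR-DMSO values, and 6 libraries had no coverage. The gene has an outer start at position 1113263 of chromosome 20 and an inner start 5339 bp further on. No base within 2 kb of the outer start was in a peak in any library, while the inner start was in a peak in 12 of 12, with 1215 to 1546 bp within 2 kb. The windows of both starts are shown because their marks differ so widely, at chr20:1113013-1113312 and chr20:1118352-1118651 (plus strand). Capitals mark CCGGAAG, the ETS core, on either strand.
PSMF1 outer start: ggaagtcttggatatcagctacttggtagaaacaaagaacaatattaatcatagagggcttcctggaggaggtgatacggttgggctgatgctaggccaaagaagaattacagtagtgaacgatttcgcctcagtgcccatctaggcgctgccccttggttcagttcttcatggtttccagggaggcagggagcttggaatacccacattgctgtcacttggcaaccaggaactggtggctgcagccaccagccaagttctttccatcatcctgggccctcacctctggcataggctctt
PSMF1 inner start: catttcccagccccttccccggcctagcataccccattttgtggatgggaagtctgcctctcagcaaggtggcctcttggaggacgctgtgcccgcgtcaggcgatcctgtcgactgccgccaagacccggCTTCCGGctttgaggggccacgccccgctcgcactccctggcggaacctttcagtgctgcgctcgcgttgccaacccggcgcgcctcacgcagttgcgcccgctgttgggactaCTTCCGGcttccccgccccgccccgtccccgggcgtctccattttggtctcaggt

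Motif matches were counted in 47 RefSeq promoter windows of 39 members and in 22132 windows of the same length from all protein-coding genes, on both strands, with each motif counted separately so that matches of different motifs may overlap. The antioxidant response core TGACNNNGC, which NFE2L1 and NFE2L2 bind with small MAF proteins, occurred in 13 member windows (27.7%), against 13.8% of all windows. The ETS core CCGGAAG occurred in 14 (29.8%), against 12.8%. CCAAT occurred in 19 (40.4%), against 34.6%, and the NRF1 core GCGCATGC in 3 (6.38%), against 3.74%. GAAANNGAA occurred in 7 (14.9%), against 7.09%, and the STAT core TTCNNNGAA in 8 (17%), against 6.79%. The C/EBP core TTGCNNAA occurred in 3 windows (6.38%), those of PSMB4, PSMB5 and PSMD5, against 8.69%. The glucocorticoid receptor pattern ACANNNTGT occurred in 0 member windows, against 3.96%. Median GC content was 61.3% in the member windows, against 62.3% in all windows.

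Dexamethasone was compared with DMSO in each genotype, which addresses the drug response. No proteasome subunit gene passed the test in either genotype. In scramble cells 0 of 44 members had an adjusted p under 0.05 by limma, beside 0.102% of the 14708 genes tested, and 2 members had an unadjusted p under 0.05, beside 5.77% of all genes. The median log2 difference of SCR-Dex over SCR-DMSO, on the log2(bp + 500) scale as are all differences here, was 0.06 over the members and 0.02 over all genes tested. The smallest p belonged to PSMA4, with a log2 difference of 0.17 ± 0.067 (SE) and an adjusted p of 0.774, and next to PSMD3, with 0.42 ± 0.17 and 0.787. Overlap of groups was judged on covered lengths before normalization, here and throughout. Groups did not overlap for 2 members that were higher (PSMA4 and PSMB9), beside 3.03% of all genes, and for 1 that was lower (PSMA6), beside 5.71%.

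In knockout cells 0 of 44 members passed, beside 0.102% of all genes, with 2 members at an unadjusted p under 0.05, beside 6.23% of all genes. The median log2 difference of KO-Dex over KO-DMSO was −0.00045 over the members and 0.03 over all genes. PSMC6 had 0.24 ± 0.067 with an adjusted p of 0.562, and PSMB7 had −0.61 ± 0.26 with 0.786. The values did not overlap for 2 members that were higher (PSMC6 and PSMA3), beside 5.14% of all genes. They did not overlap for 6 that were lower (PSMB7, PSMB2, PSMB10, PSMC4, PSME1 and PSME2), beside 6.61%.

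The 2 drug responses were also compared with each other, the interaction that the title of the series asks about. No member passed, beside 0.0272% of all genes, and 1 had an unadjusted p under 0.05, beside 4.64%. PSMD7 had the smallest p, with a difference of −1.01 ± 0.45 between the response in knockout and that in scramble cells, and PSMD3 had −0.53 ± 0.24. Both had an adjusted p of 0.999 by limma. Averaged over genotypes, the drug effect passed for 0 members, beside 0.136% of all genes, with 1 at an unadjusted p under 0.05, beside 7.06%. PSMC6 had 0.13 ± 0.047 with an adjusted p of 0.602 and PSMA4 had 0.08 ± 0.048 with 0.739. Within 2 kb of starts, 0 of 37 members passed in scramble cells (beside 0.132% of genes), in knockout cells (0.179%), in the interaction (0.113%) and in the averaged drug effect (0.198%).

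Knockout was compared with scramble under each treatment. Under DMSO 0 of 44 members passed, beside 3.03% of all genes tested, and 4 had an unadjusted p under 0.05, beside 12.9%. PSMA4 had a log2 difference of 0.22 ± 0.067 (SE) with an adjusted p of 0.151 by limma, and PSMD13 had 0.52 ± 0.17 with 0.184. KO-DMSO lay above SCR-DMSO without overlap for 4 members (PSMA4, PSMB9, PSMD3 and PSMD13), beside 12% of all genes, and below it for PSMF1, beside 6.68%.

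Under dexamethasone 0 of 44 passed, beside 3.65% of all genes, with 4 at an unadjusted p under 0.05, beside 13.4%. PSMB7 had −0.95 ± 0.26 with an adjusted p of 0.105 and PSMD8 had −0.39 ± 0.12 with 0.153. Without overlap, KO-Dex was above SCR-Dex for 6 members (PSMB8, PSMB9, PSMC6, PSMD9, PSMD11 and PSMD14), beside 16.4% of all genes, and below it for 5 (PSMA7, PSMB4, PSMB7, PSMD8 and PSME2), beside 7.39%.

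Averaged over both treatments, the knockout effect passed for 1 of the 44 members, PSMD8, beside 6.44% of all genes tested. At an unadjusted p under 0.05 there were 8 members, beside 18.5% of all genes. The median absolute log2 difference was 0.07 over the members and 0.11 over all genes. Only PSMB9 was higher without overlap between all 6 knockout and all 6 scramble libraries, beside 3.53% of all genes, and none was lower, beside 2.16%. That overlap was judged before normalization. After it, PSMB9 differed by 0.06 ± 0.046 with an adjusted p of 0.562 by limma.

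PSMD8 fell by 0.34 ± 0.085 (SE) on the log2 scale, with an adjusted p of 0.0441 by limma. Covered length averaged 1542 ± 203 bp with the knockout, against 2015 ± 253 bp with the scramble control (SD, n = 6 each). The start peak did not carry that difference: within 2 kb of the PSMD8 start, coverage averaged 1435 ± 103 bp with the knockout, against 1423 ± 92.6 bp with the scramble control, with a log2 difference of −0.03 and an adjusted p of 0.674. A small second peak, 12837 to 13766 bp downstream of the start and beyond the far end of the gene, was listed in 1 of 6 knockout and 6 of 6 scramble libraries. Windows of CATSPERG, GGN and SPRED3 overlap that of PSMD8. Leaving out 1 library ended the call in 10 of 12 fits, with adjusted p up to 0.0995, and it stood without KO-Dex replicate 1 and without SCR-DMSO replicate 3.

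PSMD13 had the next smallest p, with 0.43 ± 0.12 and an adjusted p of 0.0740, and did not pass. Knockout libraries averaged 2723 ± 529 bp, against 1831 ± 385 bp for scramble libraries. Peaks overlapping the stretch 13530 to 14169 bp downstream of the PSMD13 start, inside the gene near its far end, were listed in 6 of 6 knockout and 1 of 6 scramble libraries. At the start itself the difference was 0.02 with an adjusted p of 0.792. Without KO-DMSO replicate 2 PSMD13 passed at its ends, with 0.49 and 0.0483. PSMB7, at −0.54 ± 0.19 with 0.147, and PSMB8, at 0.12 ± 0.045 with 0.175, followed. PSMB7 passed without SCR-DMSO replicate 1, at −0.68 with 0.0334.

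**Figure D4:**
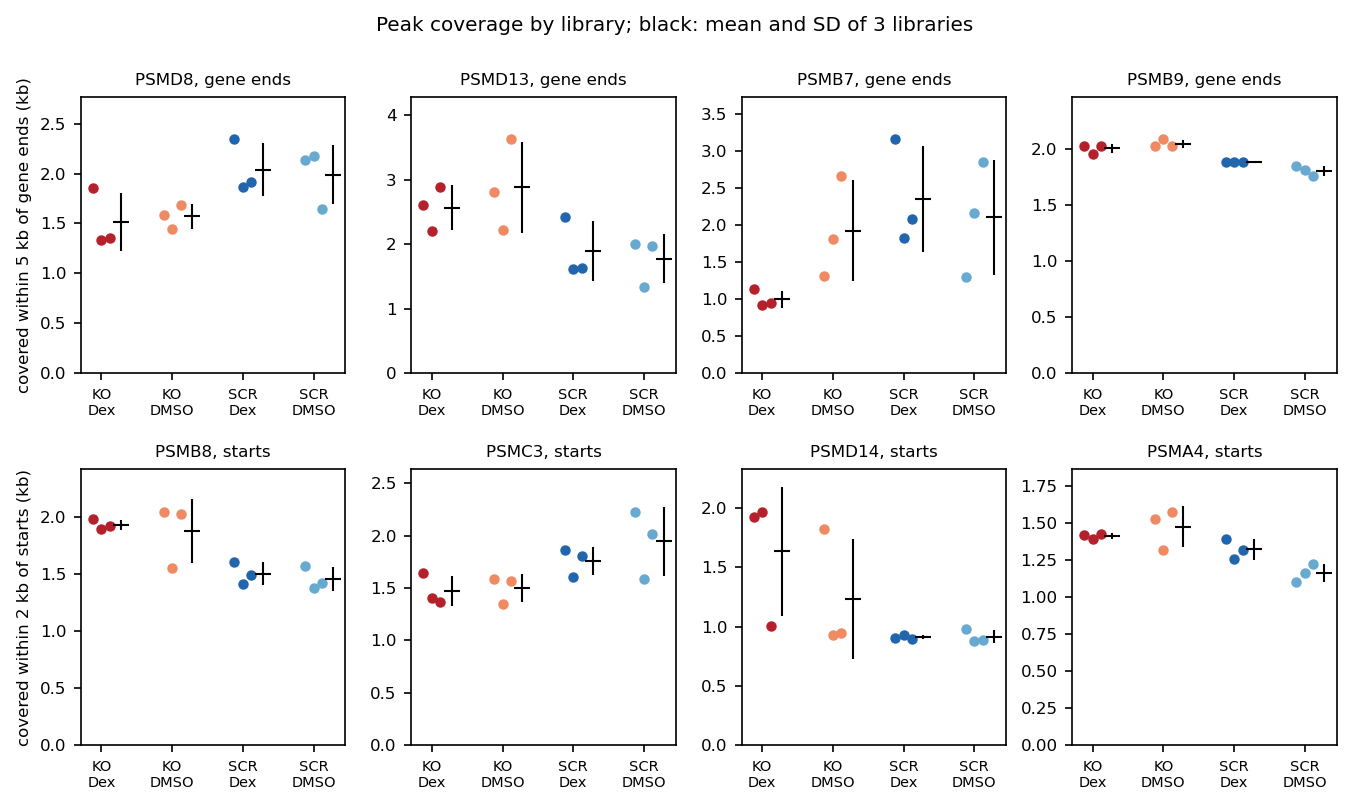
Covered length in kb per library (coloured points) with the mean and SD of 3 libraries (black) for PSMD8, PSMD13, PSMB7 and PSMB9 at the gene ends (upper panels) and for PSMB8, PSMC3, PSMD14 and PSMA4 at the starts (lower panels), by group. PSMB9 values in knockout libraries all lie above those in scramble libraries, and 3 PSMD14 values in knockout libraries lie above all others.

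Within 2 kb of annotated starts the knockout effect averaged over treatments passed for 2 of 37 members, beside 8.13% of the 10620 genes tested in that window. PSMB8 rose and PSMC3 fell. Starts of PSMB8 were covered over 1978, 1896 and 1918 bp in KO-Dex, 2047, 1551 and 2026 bp in KO-DMSO, 1607, 1408 and 1491 bp in SCR-Dex and 1570, 1374 and 1417 bp in SCR-DMSO. Of the 6 knockout libraries, 5 lay above every scramble library, and 1 KO-DMSO library lay among them.

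Coverage at the PSMB8 starts averaged 1903 ± 182 bp with the knockout, against 1478 ± 94.6 bp with the scramble control (SD, n = 6 each), a log2 difference of 0.23 ± 0.047 (SE) with an adjusted p of 0.0146 by limma. Counted from the outer start, the upstream edge of the start peak lay at −989 to −847 bp in 5 knockout libraries and at −406 bp in the other, against −572 to −372 bp in scramble libraries. The fold enrichment of that peak was 4.27 to 5.38 in knockout and 5.19 to 6.21 in scramble libraries, values from separate lists that were not tested against each other. Width and fold enrichment describe the same called peak, so this is not a separate observation from the difference in width. The call stood in all 12 fits that left out 1 library, with log2 differences of 0.21 to 0.27 and adjusted p up to 0.0397. The extension runs towards the far end of TAP1, whose window spans the peaks of both PSMB8 and PSMB9. TAP1 itself had 3637 to 4070 bp with the knockout, against 3172 to 3494 bp with the scramble control. The log2 difference was 0.16 ± 0.036 with an adjusted p of 0.0260 by limma. In every library this length was the PSMB8 start peak and the PSMB9 peak together, so TAP1 is not a separate observation. TAP2 on the other side differed by −0.01 ± 0.11, with an adjusted p of 0.982.

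**Figure D5:**
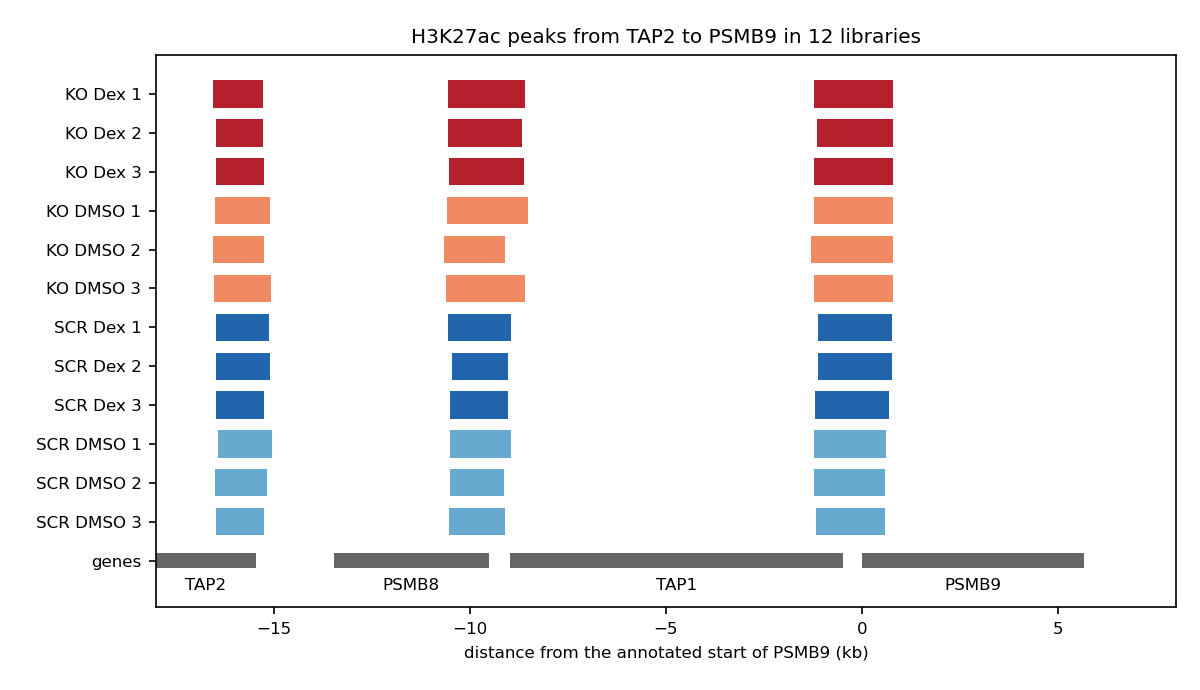
Peaks in each of the 12 libraries (rows) against distance in kb from the annotated start of PSMB9, with the spans of TAP2, PSMB8, TAP1 and PSMB9 in grey. The middle peak, at the PSMB8 start, reaches further right in 5 of the 6 knockout libraries than in any scramble library.

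PSMC3 starts were covered over 1641, 1409 and 1367 bp in KO-Dex, 1586, 1345 and 1566 bp in KO-DMSO, 1861, 1605 and 1808 bp in SCR-Dex and 2231, 1586 and 2018 bp in SCR-DMSO. The 2 genotypes overlapped, with the lowest scramble values inside the knockout range. Knockout libraries averaged 1486 ± 127 bp, against 1852 ± 247 bp for scramble libraries (SD, n = 6 each), a log2 difference of −0.29 ± 0.061 (SE) with an adjusted p of 0.0183 by limma. The downstream edge of the peak lay 410 to 674 bp after the start in knockout libraries and 670 to 1256 bp after it in scramble libraries. This call also stood in all 12 fits that left out 1 library, with log2 differences of −0.34 to −0.26 and adjusted p up to 0.0471. The PSMC3 promoter window (chr11:47426390-47426689, minus strand) is shown with its CCAAT match in capitals, the only motif of those searched that it holds.
PSMC3: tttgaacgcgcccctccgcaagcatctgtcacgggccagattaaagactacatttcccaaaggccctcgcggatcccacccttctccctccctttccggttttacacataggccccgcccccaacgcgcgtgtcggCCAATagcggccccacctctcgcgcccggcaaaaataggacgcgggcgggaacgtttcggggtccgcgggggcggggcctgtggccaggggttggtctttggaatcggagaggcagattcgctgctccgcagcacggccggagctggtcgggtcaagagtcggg

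The other 35 members tested at starts did not pass, and under each treatment by itself 0 of 37 passed, beside 3.46% of genes under DMSO and 4.21% under dexamethasone. PSMA4 came next, with 0.13 ± 0.040 and an adjusted p of 0.0934. PSMD14 had 0.38 ± 0.14 with 0.148, resting on the 3 knockout libraries with the longer peak. PSMB9 had 0.05 ± 0.022 with 0.192, and PSME2 had −0.10 ± 0.036 with 0.127. Other definitions of coverage gave other calls for the averaged knockout effect. With peaks of −log10 q of at least 2 alone, PSMC3 (−0.29, adjusted p 0.0176 by limma) and PSME2 (−0.12, adjusted p 0.0343) passed, beside 9.14% of genes. Over the whole gene span, PSMA6, PSMD8 and PSMD13 passed, beside 11.7%. Within 1 kb of gene ends no member passed, beside 5.55%, and under DMSO alone PSMB9 did, beside 2.59%.

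Of 14 genes for assembly factors and associated proteins and 14 for regulators of proteasome gene expression, all 28 were covered in all 12 libraries. None passed in any comparison, beside 0.0272% (interaction) to 6.44% (averaged knockout effect) of all genes tested. Of 14 antigen-processing genes, all covered in all 12 libraries, TAP1 was the only one to pass, in the averaged knockout effect. Its covered length was that of the PSMB8 and PSMB9 start peaks, as described above.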

How the data were processed

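The deposited data are 12 broad peak lists, 1 per library of 100000 cells. The submitters' processing notes name Bowtie2 2.4.2, MACS3 3.0 and hg38; their settings and any control library are not given in the sources used here. Peak starts and ends in the deposited lists are positions. The lists also hold a deposited score, a fold enrichment (a ratio of the authors' caller), and the deposited −log10 p and −log10 q of each peak. They hold no counts, so depth is unknown and no counting interval applies. In this work, bases in peaks on chromosomes 1 to 22 and X were summed within 5 kb of gene ends from the RefSeq table, and within 2 kb of starts in the RefSeq promoter table (GRCh38.p14). Testing was limited to genes covered in 3 or more libraries, a filter all 44 members passed. Values were log2(bp + 500), quantile-normalised, and fitted with limma 3.58.1 (trend, robust, 8 residual degrees of freedom) in R 4.3.3, with Benjamini-Hochberg adjustment over all 14708 genes and a threshold of 0.05. Fold enrichments were only described. Whether groups overlapped was judged on covered lengths before normalization. The 4 group means shared 1 estimate of spread. The code was checked on simulated data. Python 3.11.15 ran with SciPy 1.17.1, pandas 2.3.3, Matplotlib 3.10.9 and NumPy 2.4.6.

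The members, gene lists and tests were chosen with earlier results of these data known. Values per library are given for members not covered in all libraries, the 3 with the longest and the 3 with the shortest coverage, those that passed or had the 2 smallest p in a comparison, and a list of subunits of special role. PSMC3 and PSMD14 at starts were singled out after their values were seen. The alternatives were other normalizations, filters, pseudocounts, windows, peak thresholds and models, a replicate block, and leaving out each library; the fits at starts without each library were added after seeing the data. A further list, for ubiquitin supply and shuttling, is not reported here.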

Additional observations from a re-analysis of the deposited data

How the results depend on the processing

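Drug comparisons and the interaction gave 0 members under every alternative run, beside 0.0272 to 0.136% of all genes in the main fit. Under DMSO the knockout comparison gave 1 member with 1 kb windows at gene ends, beside 2.59% of genes (PSMB9, log2 0.11, adjusted p 0.0454 by limma). Under dexamethasone it gave 0 to 1 when 1 library was left out, beside 3.65% of all genes in the main fit. The member was PSMB7 without SCR-DMSO replicate 1 (−0.95 with 0.0405) or PSMD8 without KO-Dex replicate 1 (−0.52 with 0.0373). The averaged knockout effect gave 0 members with no normalization (618 genes higher and 384 lower of 14708), with no filter (432 and 348 of 19974) and with 1 kb windows (5.55% of genes). It gave 2 with peaks of −log10 q of at least 2 (PSMC3 and PSME2, beside 9.14%) and 2 at starts (PSMB8 and PSMC3, beside 8.13%). Over the whole gene span it gave 3 (PSMA6, PSMD8 and PSMD13, beside 11.7%). When 1 library was left out it gave 0 to 1, beside 6.44% in the main fit. At starts, leaving out 1 library gave 2 to 3 members of 37, beside 8.13% of genes in the fit at starts with all libraries. The replicate numbers did not pair the libraries (correlations of −0.03 to 0.05 over 18 same-numbered pairs). With the replicate block the averaged knockout effect gave 1 member, PSMD13 (0.43 with 0.0245), in place of PSMD8 (−0.34 with 0.0541), beside 458 genes higher and 370 lower of 14708. Of the single-gene values, 483 kept their status, 12 gained a call and 17 lost it, and none turned its sign among called values. Most of the 483 were uncalled in both fits. Only PSMD8 in the averaged knockout effect was called in the main fit, so all 17 losses were of that call. The causes were not tested. Gene-end windows miss starts that lie inside a gene span, as at PSMA1, PSMA6 and PSMF1, and hold starts of neighbouring genes. Covered length is set by where the caller drew edges at an unknown depth, and says nothing of signal height.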
